A study of Medicago sativa with 86 samples.

Results

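Messenger RNA was measured in leaves of alfalfa (Medicago sativa, a legume that can live with nitrogen-fixing rhizobia) grown at 600 ppm CO2, and leaves of plants fed 6 mM KNO3 were compared with leaves of plants fed 10 mM KNO3. The comparison used 30 of the 86 libraries of the series, chosen by their labels: 15 at 6 mM and 15 at 10 mM. Agate and Saranac were the cultivars, and within each the labels distinguish plants with effective from plants with ineffective nitrogen fixation, which gives 4 lines. Effective Agate and ineffective Agate had 4 libraries at each nitrate level, effective Saranac had 3 at 6 mM and 4 at 10 mM, and ineffective Saranac had 4 at 6 mM and 3 at 10 mM. All plants, whatever their class, stood in a sterilised mix of clay and sand to which a rhizobium culture was added, and received their KNO3 once a week in dilute Hoagland solution. The labels do not say what makes the ineffective class ineffective, whether a library is 1 plant or several, or whether libraries came from separate sowings. The p-values therefore measure the spread between these libraries, which may in part be technical. Age at harvest is not given in the labels, and each CO2 level had chambers of its own, so CO2 and chamber cannot be told apart wherever 420 and 600 ppm are set side by side. At 600 ppm the library numbers run in blocks by KNO3 level, so any effect tied to that order cannot be told apart from nitrate.

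Nitrate taken up by roots is reduced to ammonium largely in leaves, where the reaction draws on the same reducing power as photosynthetic carbon fixation. Legumes can also obtain ammonium from bacteria in root nodules, and nitrate in the soil holds back nodule formation and activity. Elevated CO2 commonly raises carbon supply and lowers the nitrogen concentration of leaves, so the supply of nitrate is a usual second factor in CO2 studies. The study is concerned with nitrogen fixation and the balance of carbon and nitrogen under elevated CO2, as its title puts it. The contrast of 6 with 10 mM asks how leaf transcripts differ at a lower nitrate supply once CO2 is already high. The levels are of KNO3, so potassium supply may have differed along with nitrate, which was not tested. A nitrate level or nitrate difference below means one of KNO3.

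The total count per library lay between 15736764 and 25910031 with a median of 19758194, and did not differ detectably between the nitrate levels (20150889 ± 2488686 at 6 mM and 19320434 ± 2194428 at 10 mM, SD, n = 15 each, exact permutation test within lines, two-sided p = 0.306). The 100 most abundant genes of the other libraries took 28.4 ± 4.79% of the counts at 6 mM and 29.5 ± 5.70% at 10 mM (exact permutation p = 0.682). Genes at 1 CPM or more (CPM is the count divided by the scaled library total) numbered 17075 ± 169.9 and 17063 ± 184 (SD, exact permutation p = 0.6). Gene identifiers follow the count table. None of the 49095 identifiers matched the available table of gene names, so neither the function of a gene nor markers of leaf cell types could be stated or checked. No sequence is shown for the same reason.

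With the 4 lines weighted equally, 329 genes were higher and 219 were lower at 6 mM than at 10 mM. These 548 genes are 2.25% of the 24386 tested (1.35% higher and 0.898% lower, edgeR's quasi-likelihood test, Benjamini-Hochberg adjusted p under 0.05). In such bulk samples a change in the number of cells of a type and a change in RNA per cell cannot be told apart. Genes that were higher moved further, with a median log2 fold change of 1.09, against -0.70 for genes that were lower. Of the higher genes 192 passed a log2 fold change of 1 and 63 passed 2. Of the lower genes 64 fell by more than 1 on the log2 scale. As mean level in the 30 libraries, the median over genes was 25.7 CPM for the higher genes, 12 CPM for the lower and 5.55 CPM for all tested. These libraries also set the calls, so the levels do not show that the higher genes were the more abundant. By mean level in the other libraries, 43 higher and 19 lower genes were under 1 CPM, and 168 and 109 were from 10 to 100 CPM. The number of calls depended on which libraries were present: it was 344 without replicate 3 of effective Saranac at 10 mM, 634 without the third 6 mM library of ineffective Agate, and 25 when every replicate 3 was left out. In the first and last of these fits no sign turned among the 548, which their choice in mostly the same libraries favours. A fit of another kind, limma-trend, called 798 genes with all libraries, and 465, 503, 517 and 531 without, in turn, replicate 3 of effective Agate, replicate 2 of ineffective Saranac, replicate 1 of ineffective Agate and replicate 3 of effective Saranac, all at 10 mM.

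A fold change of the same sign in all 4 lines was found for 522 of the 548 (95.3%), against 22.1% of all genes tested; the call itself favours such genes, since it averages the lines. Among the higher genes the median log2 fold change was 0.81 in effective Agate, 0.93 in ineffective Agate, 1.25 in effective Saranac and 1.27 in ineffective Saranac. Among the lower genes it was -0.53, -0.62, -0.85 and -0.74 in the same order. Across all 24386 genes, fold changes of different lines, which share no library, were weakly related, with Pearson's r from 0.164 for ineffective Agate and effective Saranac to 0.315 for effective Agate and effective Saranac. Genes are not independent replicates, and these values are a description.

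No single gene separated all 15 libraries at 6 mM from all 15 at 10 mM. Under every one of 13 alternative settings 11 genes (7 higher, 4 lower) were called. Of these, the 2 with the smallest p in each direction are described here, chosen after their values were seen. MsG0380013447.01 ranged from 5.38 to 33.6 CPM with a median of 14 at 6 mM, and from 1.79 to 9.51 CPM with a median of 4.65 at 10 mM. Its 6 mM libraries lay above all 10 mM libraries in both classes of Saranac, while in each class of Agate the groups overlapped. The log2 fold change was 1.58 ± 0.239 (SE, edgeR adjusted p = 0.000234), and it was between 1.51 and 1.67 in the 4 lines.

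MsG0880046327.01 ranged from 12.2 to 153 CPM with a median of 36.9 at 6 mM, and from 7.95 to 39.8 CPM with a median of 15 at 10 mM. Its log2 fold change was 1.67 ± 0.272 (SE, edgeR adjusted p = 0.000632). The difference was widest in effective Saranac, where the 3 libraries at 6 mM stood at 141, 67.3 and 153 CPM and the 4 at 10 mM between 13.3 and 15.1 CPM. In ineffective Saranac the groups were also apart, and in Agate they overlapped.

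MsG0680032643.01 ranged from 24.9 to 54.6 CPM with a median of 30.9 at 6 mM, and from 33.2 to 106 CPM with a median of 51.4 at 10 mM. All 6 mM libraries lay below all 10 mM libraries in 3 lines, and in effective Agate 1 of the 16 pairs of libraries went the other way. The log2 fold change was -0.77 ± 0.130 (SE, edgeR adjusted p = 0.000849). MsG0780037123.01 ranged from 5.53 to 13.5 CPM with a median of 9.97 at 6 mM, and from 10.7 to 31 CPM with a median of 17 at 10 mM. Its log2 fold change was -0.87 ± 0.163 (SE, edgeR adjusted p = 0.00217), and the groups were fully apart in effective Saranac alone.

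**Figure D1:**
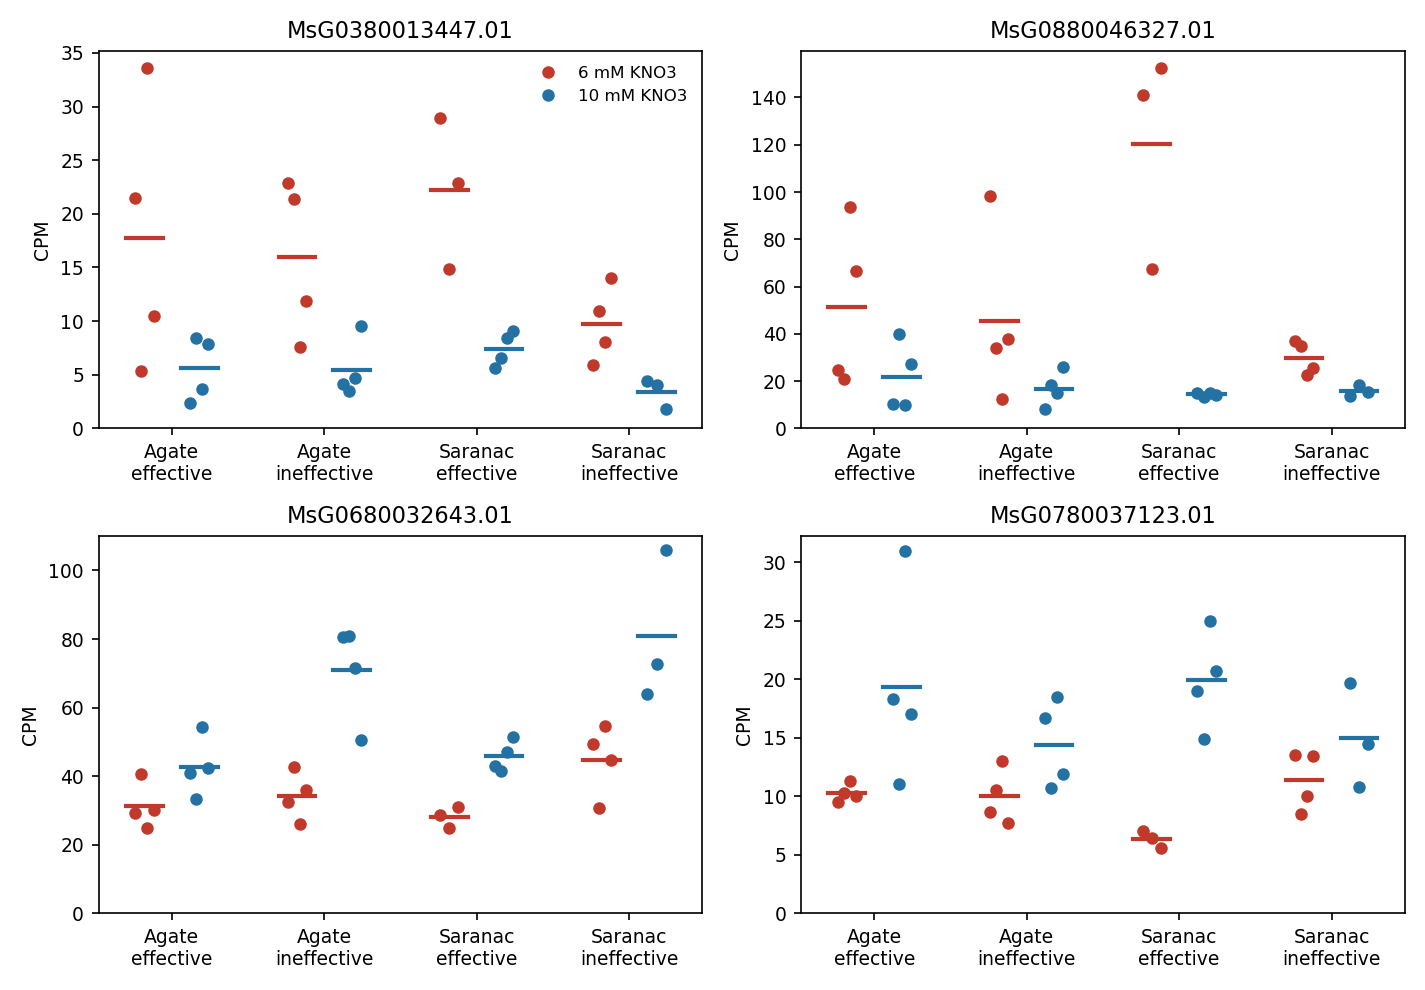
Level in CPM of the 4 genes in each library at 600 ppm CO2, by line, with 6 mM in red and 10 mM in blue. Points are libraries (3 or 4 a group) and bars are group means; the 6 mM means lie above the 10 mM means in every line for the upper pair and below them for the lower pair.

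The rule that ranks called genes by the smallest fold change among the lines picked out genes of a different kind, low in most libraries and high in a few. MsG0380017748.01 had a median of 0.960 CPM and a highest value of 26.5 CPM at 6 mM, where 3 libraries were at 0, and did not pass 0.454 CPM at 10 mM. Its fitted log2 fold change was 4.81 ± 1.05 (SE, edgeR adjusted p = 0.00772) and 3.46 (adjusted p = 0.0656) without replicate 1, the number of its highest library. MsG0680034709.01 ran from 0 to 96.8 CPM with a median of 6.38 at 6 mM, and from 0 to 9.35 CPM with a median of 0.970 at 10 mM, a log2 fold change of 3.18 ± 0.800 (SE, edgeR adjusted p = 0.0196). In these genes a handful of libraries carried most of the level, and neither was called in every edgeR fit that left out 1 replicate number.

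The lower genes picked by the same rule were as uneven. MsG0480018351.01 had a median of 0.0960 CPM at 6 mM, with 6 libraries at 0 and a highest value of 7.32 CPM, and a median of 1.95 CPM at 10 mM with a highest value of 43.8 CPM. Its log2 fold change was -3.63 ± 0.942 (SE, edgeR adjusted p = 0.0255), and it was no longer called without replicate 3 of effective Saranac at 10 mM (-2.69, adjusted p = 0.111). MsG0880045689.01 was at 0 in 11 libraries at 6 mM and in 3 at 10 mM, with highest values of 3.93 and 13.7 CPM. Its log2 fold change of -4.38 ± 1.22 (SE, edgeR adjusted p = 0.0378) was fitted over groups of which 1 was at 0 throughout, so the size depends on the fit and is no bound, and the call was lost under 7 of 13 alternatives.

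The libraries were also placed on the main axis of their own variation. After the mean of each line was removed, 13.3% of the variance of log2 CPM fell on the first principal component, and the 6 mM libraries lay mostly on one side of it: 13 of 15 were above 0, against 4 of 15 at 10 mM. The scores were 33.7 ± 24.5 at 6 mM and -33.7 ± 49.7 at 10 mM (SD, n = 15 each). The difference within lines was 68.6 (exact permutation test within lines over 6002500 relabelings, two-sided p = 0.000124, adjusted over 7 measures 0.000866). The 10 mM libraries spread the more widely. Replicate 3 of effective Agate at -112 and replicate 3 of effective Saranac at -107 lay farthest down, while replicate 2 of effective Agate at 53.2 and replicate 4 of ineffective Agate at 36.6 lay among the 6 mM libraries. This measure was added after the data were seen.

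**Figure D2:**
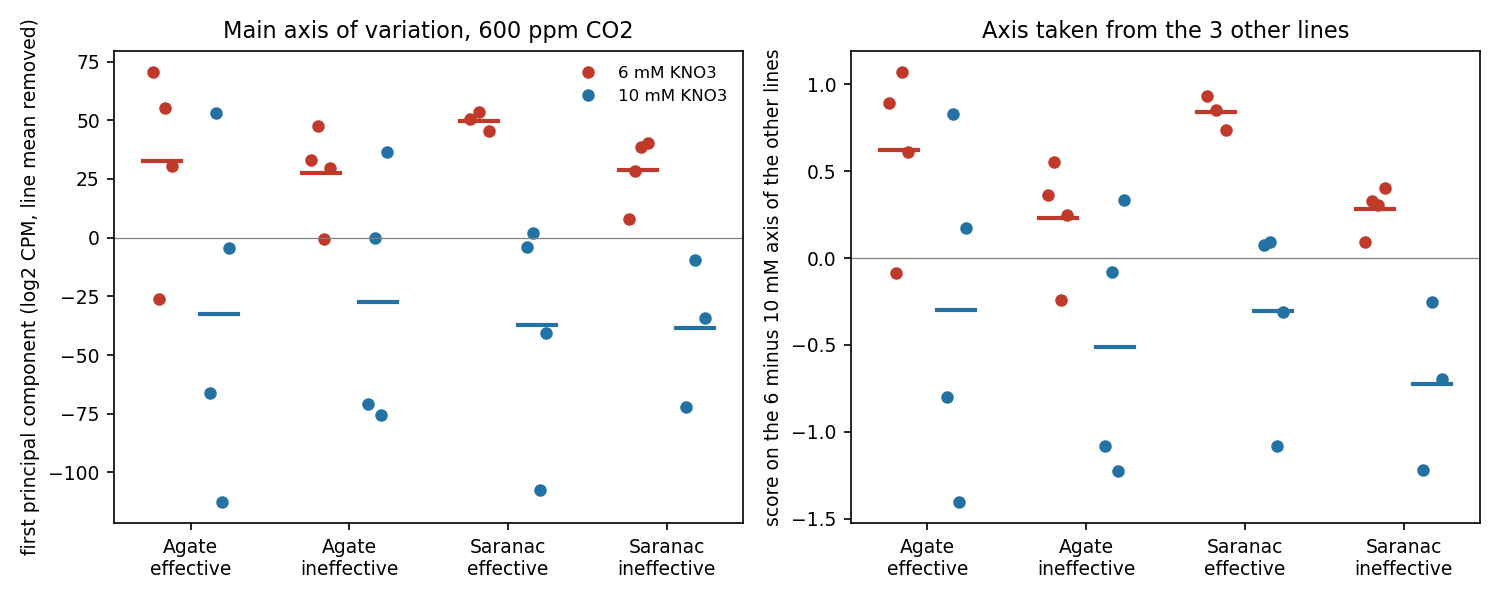
Left, score of each library on the first principal component of the 30 libraries after removal of line means; right, score of each library on the 6 minus 10 mM axis of the 3 other lines, where -1 and 1 are the 10 and 6 mM means of those lines. Points are libraries (red 6 mM, blue 10 mM) and bars are group means; the 6 mM mean is above the 10 mM mean in every line in both panels, and the groups overlap in Agate.

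Each line was then scored on the difference found in the other 3 lines, so that no library helped to set the axis it was scored on. In effective Saranac the mean score was 0.840 ± 0.0979 (SD, n = 3) at 6 mM and -0.306 ± 0.551 (SD, n = 4) at 10 mM, and the groups did not overlap. In ineffective Saranac it was 0.283 ± 0.133 (SD, n = 4) and -0.723 ± 0.485 (SD, n = 3), again without overlap. Both had an exact permutation p of 0.0286, the smallest that 3 against 4 libraries allow, and 0.0571 when adjusted over the 4 lines. In effective Agate the difference was 0.92 and in ineffective Agate 0.74, and the groups overlapped in both (exact permutation p = 0.2 and 0.171, both 0.2 when adjusted). The difference was thus of the same sign in 4 of 4 lines, and no line passed the adjusted threshold alone.

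Within single lines, which hold 7 or 8 libraries each, few genes passed the test. In effective Agate no gene was called (0%, edgeR), with 1259 genes at an unadjusted p under 0.05, 4 called by limma-trend and 45 by DESeq2. An unadjusted threshold of 0.05 passes many genes that do not differ, so the 1259 do not by themselves show a difference. In ineffective Agate 8 genes were called (0.0328% of those tested), 2 higher (0.0082%) and 6 lower (0.0246%). That count was 4 without replicate 3 at 6 mM, 0 in a model of the 30 libraries alone and 0 without all libraries of replicate 1 or of replicate 3. In effective Saranac 1 gene was called (0.0041%), and it was higher. In ineffective Saranac 2 were called (0.0082%), 1 in each direction. DESeq2 called 217 genes in ineffective Agate, 193 in effective Saranac and 142 in ineffective Saranac, and limma-trend 19, 7 and 15, so the number of genes that differed within a line depends on the tool. Genes whose 6 mM libraries all lay on one side of their 10 mM libraries made up 2.6% of those tested in effective Agate, 5.18% in ineffective Agate, 9.97% in effective Saranac and 8.46% in ineffective Saranac. Agate has 4 against 4 libraries and Saranac 3 against 4, which separate by chance more readily, so these shares cannot be compared between the cultivars.

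The lower genes named in ineffective Agate separated all of its libraries by nitrate level. MsG0380016753.01 stood at 39.3, 38, 31.1 and 35.3 CPM in the 6 mM libraries and at 91.7, 80.4, 77.2 and 52 CPM in the 10 mM libraries. The groups were apart, and the log2 fold change in this line was -1.07 ± 0.177 (SE, edgeR adjusted p = 0.0023). MsG0580029200.01 stood at 7.49, 9.53, 6.48 and 6.52 CPM at 6 mM and at 31.3, 14.6, 31.2 and 19.5 CPM at 10 mM, a log2 fold change of -1.68 ± 0.289 (SE, edgeR adjusted p = 0.00244). Both were also lower in the contrast over all lines (-0.45 and -0.65), which includes the line they were picked in. In effective Agate, effective Saranac and ineffective Saranac the log2 fold changes of MsG0380016753.01 were -0.41, -0.10 and -0.22. Those of MsG0580029200.01 were -0.43, -0.32 and -0.17 in the same order, and neither gene was called in these lines.

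The higher genes of ineffective Agate differed in how many libraries carried them. MsG0780036923.01 stood at 3.84, 13.5, 11.9 and 6.05 CPM at 6 mM and at 2.88, 2.31, 3.40 and 2.68 CPM at 10 mM, a log2 fold change of 1.65 ± 0.340 (SE, edgeR adjusted p = 0.0341). MsG0880046537.01 rested on a single library. It stood at 87 CPM in replicate 3 at 6 mM and at 0.365, 0.378 and 0.173 CPM in the others, against at most 0.0781 CPM at 10 mM. Its log2 fold change was 8.85 (adjusted p = 0.00244) with that library and 3.17 (adjusted p = 0.639) without the libraries of replicate 3. In effective Agate, replicate 2 at 6 mM had 43.3 CPM of the same transcript, and no other of the 30 libraries passed 1.22 CPM.

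In effective Saranac the called gene was MsG0880046327.01, whose values are given above (log2 fold change in this line 3.07 ± 0.569, SE, edgeR adjusted p = 0.0265). In ineffective Saranac MsG0880047555.01 stood at 9.16, 9.07, 8.65 and 10.9 CPM at 6 mM and at 16, 47.1 and 39.7 CPM at 10 mM, a log2 fold change of -1.86 ± 0.338 (SE, edgeR adjusted p = 0.018). In the other 3 lines its fold changes were between -0.12 and 0.10. The gene called higher there, MsG0580025730.01, was high in 1 library alone: it stood at 239 CPM in replicate 1 at 6 mM and between 10.1 and 12 CPM in the other 3, against 7.86 to 12.5 CPM at 10 mM. Without replicate 1 its log2 fold change was 0.15 (edgeR adjusted p = 0.928). Each single-line call named here was lost under 4 to 7 of the 11 or 12 alternatives run for it, and none changed sign.

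Whether the nitrate difference itself differed between lines was tested by interaction. No gene was called for a difference between ineffective and effective plants (0%, edgeR), with 1663 genes at an unadjusted p under 0.05, 0 called by limma-trend and 105 by DESeq2. No gene was called for a difference between Saranac and Agate either (0%, edgeR), with 1256 genes at an unadjusted p under 0.05, 0 called by limma-trend and 95 by DESeq2. The unadjusted threshold passes many genes that do not differ, so the 1663 and 1256 do not by themselves show a difference. These are tests of single genes, and a small shift common to many genes could pass none of them. Whether the larger medians in Saranac differ from those in Agate was not tested. A p that misses the threshold does not show that the lines respond alike.

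The third nitrate level, 16 mM, was present at 600 ppm in 13 libraries. Against 16 mM, 60 genes were higher and 37 lower at 6 mM (0.398% of those tested, edgeR). Without replicate 1 these were 119 and 9, without replicate 2 10 and 5, without replicate 3 2 and 4, and without replicate 4 3 and 3, while DESeq2 called 404 and 182, so neither the number nor the balance of directions held. Between 16 and 10 mM no gene was called (0%, edgeR), with 1533 genes at an unadjusted p under 0.05, 0 called by limma-trend and 108 by DESeq2. The 1533 do not by themselves show a difference, since the unadjusted threshold passes many genes that do not differ. The comparisons with 16 mM share libraries with the 6 against 10 mM contrast, so the values are set side by side without a test. The 329 higher genes had a median log2 fold change of 1.09 from 10 to 6 mM, 0.80 from 16 to 6 mM and 0.25 from 10 to 16 mM. The 219 lower genes had -0.70, -0.50 and -0.20. MsG0380013447.01 had a median of 7.01 CPM at 16 mM, between the 4.65 CPM at 10 mM and the 14 CPM at 6 mM.

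Groups of genes were taken from libraries that the contrast did not use and looked up in it. The groups by CO2 and fixation class came from the same edgeR fit, which estimates the spread of each gene over all 85 libraries. A gene of small spread is called more readily in each contrast, so part of an excess over the share of all genes may come from that. At 16 mM, 2258 genes were higher and 2729 lower at 600 than at 420 ppm CO2 (20.5% of those tested, edgeR, 9.26% and 11.2% in these directions). Of the genes that elevated CO2 raised at 16 mM, 105 were higher and 14 lower at 6 mM, which is 4.65% and 0.620% of them, against 1.35% and 0.898% of all genes tested. Of the genes that elevated CO2 lowered, 15 were higher and 38 lower, 0.550% and 1.39%. The median log2 fold changes of both groups were near 0, at 0.07 and -0.02. By line the genes raised by CO2 had medians of 0.18 in effective Agate, -0.02 in ineffective Agate, 0.11 in effective Saranac and 0.12 in ineffective Saranac. The genes lowered by CO2 had -0.11, 0.09, -0.16 and 0.02 in the same order, so the direction did not hold in every line.

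Genes marked by fixation class were fewer. Between ineffective and effective plants at 16 mM and 600 ppm, 158 genes were higher and 147 lower in the ineffective class (1.25% of those tested, edgeR, 0.648% and 0.603% in these directions). Of the 158, none was called higher and 11 were called lower at 6 mM, 6.96% against 0.898% of all genes, with a median log2 fold change of -0.20 and 17.1% of members above 0. The median was below 0 in each of the 4 lines and lowest in ineffective Agate, at -0.33. Of the 147, 2 were higher and none was lower, with a median of 0.14 and 74.8% above 0. The median of these was 0.37 in ineffective Agate, 0.23 in ineffective Saranac, 0.05 in effective Agate and -0.01 in effective Saranac. Replicate 3 of ineffective Agate at 6 mM stands apart from its group on the fixation axis, with a score of -0.135 against a group median of 0.617. Without that library, an alternative added after seeing the data, 10 of the 158 were called lower and 2 of the 147 higher, and the medians were -0.17 and 0.08 over lines and -0.25 and 0.15 in ineffective Agate.

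By abundance, the shares called higher and lower were 0.676% and 0.299% among 6361 genes with a mean under 1 CPM in the other libraries, 1.05% and 0.848% among 8253 genes from 1 to 10 CPM, 2.05% and 1.33% among 8185 genes from 10 to 100 CPM, and 1.95% and 1.32% among 1587 genes over 100 CPM. Of the 100 most abundant genes 1 was higher and none lower. Their median log2 fold change was 0.06. By line it was -0.16 in effective Agate, -0.06 in effective Saranac, 0.16 in ineffective Saranac and 0.30 in ineffective Agate, a spread that was not tested. These genes took 35.5% of the counts in replicate 3 of ineffective Agate at 6 mM against a group median of 24.5%, and without that library the median was 0.07 in ineffective Agate and 0.02 over lines, with none called.

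**Figure D3:**
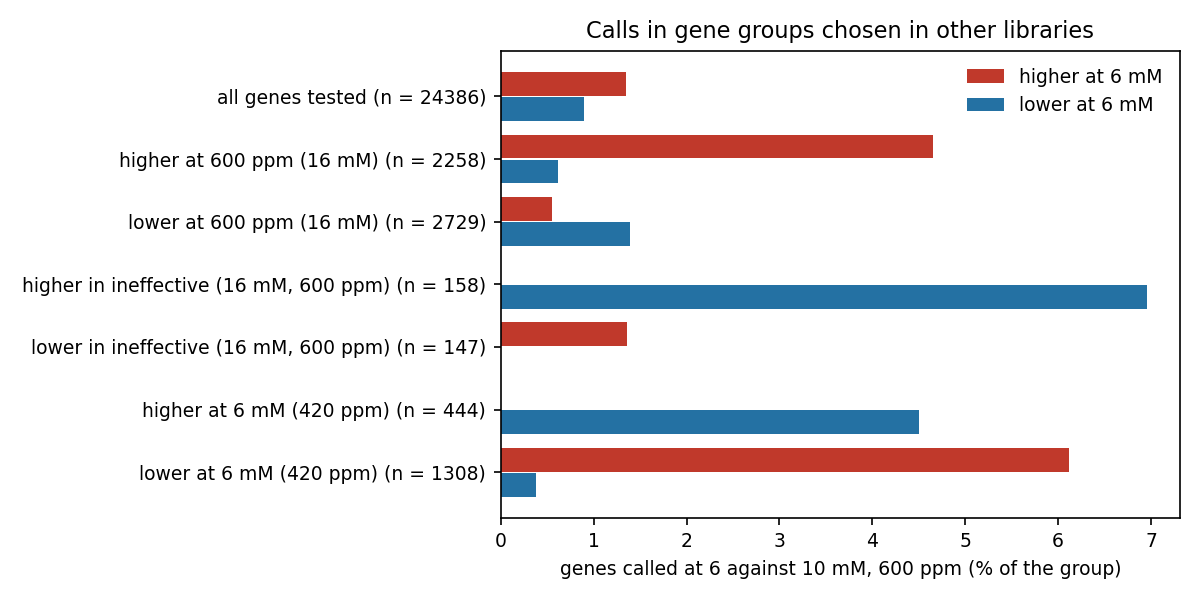
Share of each gene group that was called higher (red) or lower (blue) at 6 against 10 mM KNO3 at 600 ppm CO2, in percent of the group, by edgeR at an adjusted p under 0.05; n is the number of genes. All groups below the first were formed from contrasts of other libraries, with the spread of each gene estimated over all 85 libraries, those of this contrast included. The longest bar is the 6.96% called lower among genes higher in ineffective plants.

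A score summed this over all genes tested. Each library was projected on the CO2 difference of the 16 mM libraries, with -1 and 1 at the 420 and 600 ppm means of those libraries. At 600 ppm the score was 0.985 ± 0.247 at 6 mM, from 0.522 to 1.25, and 0.585 ± 0.455 at 10 mM, from -0.315 to 1.22 (SD, n = 15 each). The lowest 10 mM libraries were replicate 3 of effective Agate at -0.315 and replicate 3 of effective Saranac at -0.270, and the groups overlapped. The difference within lines was 0.384 (exact permutation test within lines, two-sided p = 0.00321, adjusted over 7 measures 0.00749). It was 0.53 in effective Agate, 0.10 in ineffective Agate, 0.52 in effective Saranac and 0.38 in ineffective Saranac, above 0 in 4 of 4 lines. Without replicate 3 of effective Saranac it was 0.329 (exact permutation p = 0.00483). With each replicate number left out of the test in turn, on an unchanged axis, it stayed between 0.312 and 0.448.

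At 420 ppm the same score went the other way. It was -0.995 ± 0.159 (SD, n = 13) at 6 mM and -0.500 ± 0.563 (SD, n = 14) at 10 mM, a difference within lines of -0.532 (exact permutation test within lines, two-sided p = 0.00153), below 0 in 4 of 4 lines. This test at 420 ppm was added to the planned ones, and its p is not adjusted. The 6 mM libraries of both CO2 levels thus stood near -1 and 1, where the 16 mM libraries stand by construction, and the 10 mM means of both levels lay in between. The 10 mM libraries spread more widely and some lay beyond -1 or 1, as far as -1.21 at 420 ppm and 1.22 at 600 ppm. At 420 ppm the highest 10 mM libraries were replicate 1 of ineffective Agate (0.747) and replicate 3 of effective Agate (0.248). Replicate 1 of ineffective Saranac followed at 0.233, and the 10 mM median there was -0.683, below the mean of -0.500. One 420 ppm library at 6 mM, ineffective Saranac replicate 3, has a library number within the run of its line's 16 mM libraries. It was kept as labelled. With it left out, an alternative added after seeing the data, the difference at 420 ppm was -0.526 (exact permutation p = 0.00482). On the axis of fixation class the 6 mM libraries lay 0.139 lower than the 10 mM libraries (exact permutation p = 0.0472, adjusted 0.0826), which does not pass after adjustment. With the library of ineffective Agate that stands apart left out, the difference was -0.0906 (exact permutation p = 0.0971), while the difference on the CO2 axis was 0.427 (exact permutation p = 0.000496).

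**Figure D4:**
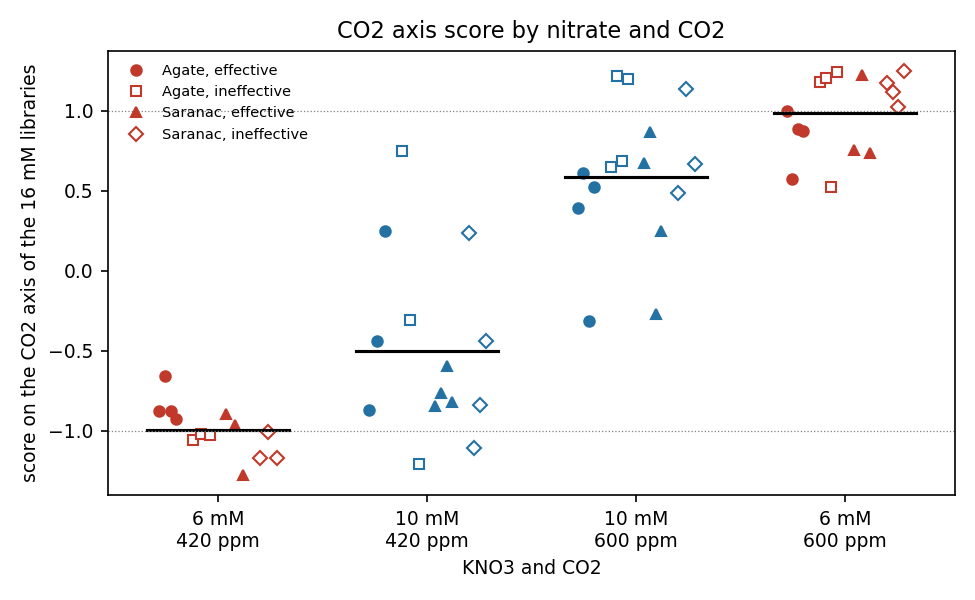
Score of each library on the CO2 axis of the 16 mM libraries, by KNO3 and CO2 level; dotted lines at -1 and 1 mark the 16 mM means of 420 and 600 ppm. Points are libraries, shaped by line and filled for effective plants, and bars are group means: -0.995, -0.500, 0.585 and 0.985 from left to right.

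The nitrate contrast was set against the same contrast at 420 ppm, which shares no library with it but comes from the same fit. At 420 ppm, 444 genes were higher and 1308 lower at 6 mM (7.18% of those tested, edgeR, 1.82% and 5.36% in these directions). Without the 420 ppm library of uncertain number named above, 372 were higher and 1148 lower. Of the 329 genes higher at 600 ppm, 80 were called lower at 420 ppm, which is 24.3% of the former and 6.12% of the latter, and none was called higher. Of the 219 genes lower at 600 ppm, 20 were called higher at 420 ppm, which is 9.13% of the former and 4.50% of the latter, and 5 were called lower. Without that library the opposite overlaps were 66 of 325 higher and 12 of 207 lower genes. At 420 ppm the median log2 fold change was -0.49 for the genes higher at 600 ppm and 0.16 for the genes lower at 600 ppm. Across all genes tested the fold changes at 420 and 600 ppm had a Pearson's r of -0.315 and a Spearman's rho of -0.18, and Pearson's r was between -0.161 and -0.0742 within the single lines.

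On the axis of the 420 ppm contrast, with -1 and 1 at the 10 and 6 mM means of 420 ppm, the 600 ppm libraries scored -1.47 ± 0.229 at 6 mM and -0.892 ± 0.630 at 10 mM (SD, n = 15 each). The difference within lines was -0.573 (exact permutation test within lines, two-sided p = 0.00263, adjusted 0.00749). The libraries fed 6 mM at 600 ppm thus lay farther from the 6 mM mean of 420 ppm than those fed 10 mM. Across genes, the fold changes of the 420 ppm contrast and of CO2 at 16 mM had a Pearson's r of -0.314. Scores on this axis and on the CO2 axis are therefore related and are not separate results.

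The difference between the contrasts at both CO2 levels was itself tested. It was called for 2309 genes (9.47% of those tested, edgeR, and 2245 without the library of uncertain number), 1579 with the larger value at 600 ppm (6.48%) and 730 with the smaller (2.99%). In the first set the median log2 fold change was 0.67 at 600 ppm and -1.13 at 420 ppm, and 1500 genes had opposite signs. In the second it was -0.48 and 0.49, with 723 of opposite sign. Both sets were chosen by the difference between the CO2 levels, which itself favours opposite signs, so these values are a description. The genes called at both levels numbered 80 and 20, and 460 and 380 were called at neither level alone. All 11 genes that were called at 600 ppm under every alternative were among the 2309, a test that uses the same 600 ppm libraries.

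MsG0080048259.01 ranged at 600 ppm from 64.5 to 410 CPM with a median of 177 at 6 mM, and from 22.1 to 163 CPM with a median of 65.9 at 10 mM. At 420 ppm it ranged from 4.70 to 81.3 CPM with a median of 31.9 at 6 mM, and from 30.6 to 898 CPM with a median of 122 at 10 mM. The order of the nitrate levels was reversed between the CO2 levels, with log2 fold changes of 1.41 ± 0.355 and -2.60 ± 0.394 that differed by 4.01 ± 0.528 (SE, edgeR adjusted p = 4.27e-06).

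MsG0480021457.01 behaved alike at a lower level. Its medians were 8.63 CPM at 6 mM and 2.49 CPM at 10 mM at 600 ppm, and 0.827 and 5.54 CPM at 420 ppm, and the fold changes differed by 4.91 ± 0.669 on the log2 scale (SE, edgeR adjusted p = 5.79e-06). Its libraries ranged from 2.23 to 29.1 CPM at 6 mM and from 0.922 to 12.3 CPM at 10 mM at 600 ppm, so the groups overlapped.

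The opposite order was seen in MsG0380015819.01. At 600 ppm it ranged from 0.703 to 5.66 CPM with a median of 1.47 at 6 mM, and from 1.31 to 12.2 CPM with a median of 5.46 at 10 mM. At 420 ppm the medians were 9.44 CPM at 6 mM and 3.94 CPM at 10 mM. The log2 fold changes of -1.56 ± 0.278 and 1.17 ± 0.287 differed by -2.74 ± 0.400 (SE, edgeR adjusted p = 6.9e-06). MsG0780039510.01 had medians of 11.4 and 27.8 CPM at 600 ppm and of 50.9 and 18.5 CPM at 420 ppm, for 6 and 10 mM in that order, and its fold changes differed by -2.88 ± 0.449 on the log2 scale (SE, edgeR adjusted p = 1.82e-05). In effective Agate and ineffective Saranac its 6 mM libraries all lay below the 10 mM libraries at 600 ppm. These 4 genes were called under all 11 alternatives run for this test.

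**Figure D5:**
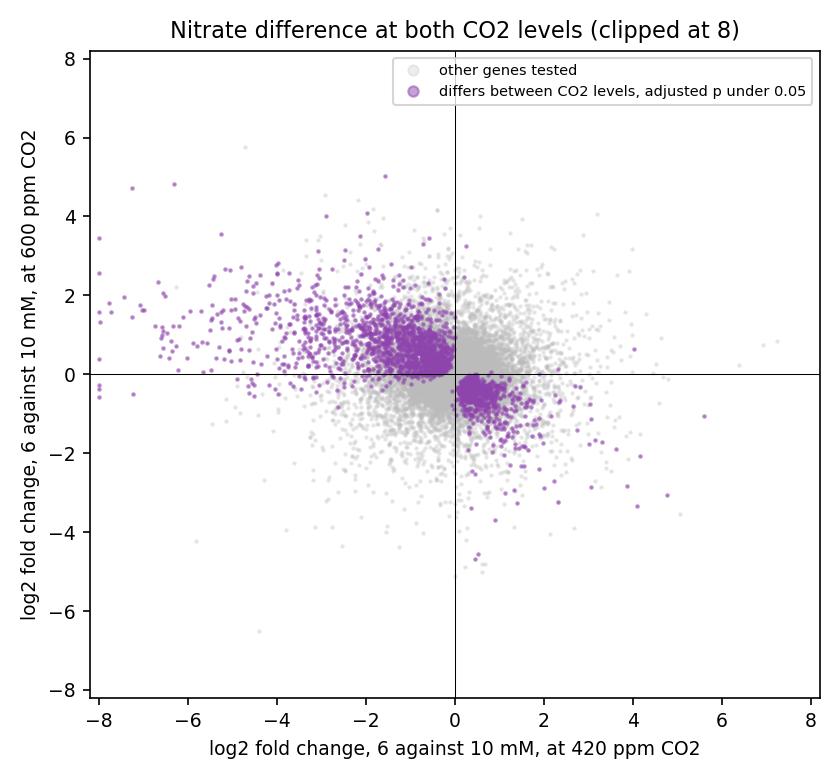
Log2 fold change at 6 against 10 mM KNO3 of each of the 24386 genes tested, at 420 ppm CO2 on the horizontal and at 600 ppm on the vertical axis (edgeR, values clipped at 8 for display). Purple points are the 2309 genes whose change differs between the CO2 levels. Most lie at the upper left and lower right, where the signs are opposite, which choice by that difference favours.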

How the data were processed

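Leaf mRNA of 86 libraries was sequenced with a stranded kit, per the labels' protocols. The authors deposited raw read counts per gene, made with featureCounts according to the submitters' processing notes. No version is recorded for it, and the strand setting, aligner, genome build and annotation were not given in the sources used here, so reads shared by near-identical or antisense genes are uncertain. Libraries were grouped by their labels into 24 groups of line, KNO3 and CO2. The labels of 1 library contradict each other, and it was left out; no columns were identical.

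edgeR 4.0.16 (R 4.3.3) was run on the counts of 85 libraries as deposited, with TMM scaling, filterByExpr (24386 of 49095 identifiers kept) and 1 coefficient a group; contrasts weighted lines equally. Standard errors are log2 fold change over the square root of F. CPM used TMM scaling, and axes used log2 CPM with a prior count of 2. Exact tests enumerated all relabelings within lines. The scripts were tested on simulated data. Alternatives used limma 3.58.1, DESeq2 1.42.0, other scaling, filters, models and left-out libraries.

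The comparison, gene groups and lists were chosen with earlier results of these data known. Lists by function and cell type markers were not run, since no identifier matched a name. For the contrast over lines, named genes were called, had a mean of at least 1 CPM and 1 sign in 4 lines, and had the largest smallest change among lines. For single lines and interactions they were called, had that mean and had the largest change over its standard error. At most 2 a direction were named.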

Additional observations from a re-analysis of the deposited data

Results flagged for a closer look

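The 6 groups of 4 libraries were examined for 16 quantities, 96 combinations, of which 15 held a library far outside the others by Dixon's criterion. Chance gives about 1 in 20 for values with a normal spread, which the levels of the uneven genes below do not have. Replicate 3 of ineffective Agate at 6 mM accounted for 3 of them: its share of counts in the 100 most abundant genes was 35.5% against a group median of 24.5%, its score on the CO2 axis was 0.522 against 1.19, and its score on the fixation axis was -0.135 against 0.617. The other 12 were single high libraries of the uneven genes picked by the ranking rule. MsG0380017748.01 reached 20.03 CPM in replicate 3 of effective Agate at 6 mM (group median 1.61). MsG0680034709.01 reached 96.8 CPM in that library (median 4.60), 9.35 CPM in replicate 4 of ineffective Agate at 10 mM (median 0.536) and 25.1 CPM in replicate 1 of ineffective Saranac at 6 mM (median 2.77).

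MsG0480018351.01 reached 0.569 CPM in replicate 1 of effective Agate at 6 mM, 2.98 CPM in its replicate 3 at 10 mM, 7.32 CPM in replicate 4 of ineffective Agate at 6 mM and 11.9 CPM in replicate 3 of effective Saranac at 10 mM. MsG0880045689.01 reached 0.529 CPM in replicate 2 of effective Agate at 6 mM, 13.7 CPM in its replicate 2 at 10 mM, 1.10 CPM in replicate 4 of effective Saranac at 10 mM and 3.93 CPM in replicate 1 of ineffective Saranac at 6 mM.

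The nitrate difference differed between 600 and 420 ppm CO2 for 2309 genes by the interaction test of edgeR. Among the genes named, the difference at 600 minus that at 420 ppm was, on the log2 scale, 4.04 for MsG0880046537.01 (0.00359), -0.67 for MsG0580029200.01 (0.0343) and 2.77 for MsG0880046327.01 (5.91e-06). It was 4.01 for MsG0080048259.01, 4.91 for MsG0480021457.01, -2.74 for MsG0380015819.01 and -2.88 for MsG0780039510.01. For the remaining steady genes it was 1.95 for MsG0380013447.01, -0.93 for MsG0680032643.01 and -1.17 for MsG0780037123.01. For MsG0380017748.01 the fitted difference was 11.13 (edgeR adjusted p = 0.000537), a size that depends on the fit: at 420 ppm the gene was at 0 in 10 of 13 libraries at 6 mM, with 3 counts in all, and at 10 mM it had a median of 0.0234 CPM and a highest value of 46.9 CPM. CO2 and chamber cannot be told apart in these differences.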

How the results depend on the processing

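The difference over lines kept the sign of all 548 called genes wherever they were tested again, which their choice in mostly the same libraries favours. Of the 548, 120, 230, 25 and 164 were still called without replicate 1, 2, 3 and 4. Under the DESeq2 Wald test 1214 genes were called, without a filter on low counts 360, and without replicate 3 of effective Saranac at 10 mM 344, an alternative chosen after seeing the data. Leaving out each replicate number in turn gave 25 to 276 calls over lines, 0 to 1 in effective Agate, 0 to 4 in ineffective Agate, 0 to 1 in each class of Saranac, 6 to 128 against 16 mM, 0 for 16 against 10 mM, 563 to 994 at 420 ppm, 852 to 1704 for the difference between CO2 levels, 0 by fixation class and 0 to 1 by cultivar. Leaving out single libraries in limma-trend gave 465 to 1150 over lines and 0 to 2 by fixation class. DESeq2 called 45, 217, 193 and 142 genes in effective Agate, ineffective Agate, effective Saranac and ineffective Saranac, and limma-trend 4, 19, 7 and 15. In ineffective Agate 4 were called without a filter, 4 without its replicate 3 at 6 mM, and 0 in a model of the 30 libraries, which gave 10 in effective Saranac, where 0 were called without its replicate 3 at 10 mM. By fixation class DESeq2 called 105 and the model of 30 libraries 1, by cultivar DESeq2 called 95, and for 16 against 10 mM it called 108. Against 16 mM, DESeq2 called 586, limma-trend 188 and the test without a filter 42. At 420 ppm limma-trend called 1061.

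Libraries of different nitrate level were compared in pairs within each line. The 14 same-number pairs correlated at -0.239 to 0.139, with 2 over 0.1. The 42 pairs of different number correlated at -0.143 to 0.294, with 5 over 0.1, so pairing by number was not seen within lines. These pairs cannot show whether libraries of the same replicate number share an effect across lines. The replicate block gave 425 calls over lines, 415 of them among the 548, and 1 in ineffective Saranac, where MsG0580025730.01 was lost (log2 fold change 2.5, edgeR adjusted p = 0.101); MsG0880045689.01 was lost over lines (-4.50, adjusted p = 0.0547). For the scores, a left-out replicate number was dropped from the test alone, and the axes stayed those set with all libraries. Scores on the CO2 axis (0.312 to 0.448), the 420 ppm nitrate axis (-0.668 to -0.466) and the first component (54.99 to 80.4) kept sign and threshold in the tests without each replicate number. The fixation axis did not: it ranged from -0.171 to -0.0974, and was -0.114 at a prior count of 0.5, -0.0965 with genes of at least 10 CPM and -0.0906 with the library that stands apart in ineffective Agate left out, an alternative chosen after seeing the data. Scores from the other lines ranged from 0.406 to 1.53 in effective Agate, 0.508 to 1.02 in ineffective Agate, 0.882 to 1.28 in effective Saranac and 0.742 to 1.23 in ineffective Saranac, where no p under 0.1 can be had, and with genes of at least 10 CPM the score in effective Saranac was 1.60 (exact permutation p = 0.0857). The share of the 100 most abundant genes (-1.24 to 0.269 percentage points) and the number of genes detected (-1.50 to 56.2) changed sign, the total count (674871 to 1328740) did not, and none of the 3 passed a test. Genes under 1 CPM rest on few reads a library, which limits their fold changes.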
